A study of Mus musculus with 6 samples.

Results

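The Sox genes of the oligodendrocyte lineage were followed in cultures of mouse oligodendrocyte precursor cells (OPC), glia that divide and migrate before they differentiate and wrap axons in myelin. The 10 genes were Sox2, Sox3, Sox4, Sox5, Sox6, Sox8, Sox9, Sox10, Sox11 and Sox13. They were chosen for their place in this lineage, with earlier results of these data known. Each was found by the gene symbol listed for each array probe, 10 of 30869 symbols. They had 25 of the 45281 probes on the array, a probe being a bead-bound oligonucleotide that captures 1 transcript sequence. The other 11 Sox symbols of the array had 21 probes.

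Total RNA of 6 primary cultures was hybridised to Illumina bead arrays, 3 cultures of spinal cord OPC and 3 of cerebrum OPC. The stated aim was to find genes that bear on OPC migration. All cultures came from C57BL/6 pups aged 6 to 8 days and grew for 7 days as dividing cells with 10 ng/ml PDGF-AA, the growth factor that drives OPC division, so that no culture lacked it. Each preparation pooled 3 to 4 pups and gave 1 spinal cord and 1 cerebrum culture with the same replicate number. Between 20343 (44.9%) and 21081 (46.6%) of the probes of an array lay above its background floor, the 95th percentile of 1302 probes for olfactory receptors, genes not expected in glia. A probe was tested where it passed this floor on at least 3 of the 6 arrays, which 20988 probes did.

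The defining markers of OPC were present in both tissues and did not pass the test of a tissue difference. The log2 difference, spinal cord minus cerebrum, was -0.20 ± 0.10 for Pdgfra, the PDGF-AA receptor, 0.01 ± 0.10 for Cspg4, which encodes the NG2 proteoglycan, -0.04 ± 0.09 for Olig1 and -0.03 ± 0.09 for Olig2 (standard error), with limma adjusted p of 0.586, 0.994, 0.973 and 0.986. All 12 OPC markers passed the floor, and 1 of them differed, Gpr17, a receptor of committed precursors, at -1.37 ± 0.23 (standard error, limma adjusted p = 0.00495, and 0.0532 without spinal cord replicate 2). Of the astrocyte markers, Gfap, Gja1, Fgfr3 and Gjb6 lay below the floor on all arrays, as did Pax6 of neural stem cells. Signal of other genes on these lists was present, since 7 of 12 astrocyte and 4 of 5 neural stem cell markers were tested. Which cells carried that signal was not tested.

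Sox proteins bind a short DNA core with their HMG domain and are grouped by sequence. The SoxE proteins Sox8, Sox9 and Sox10 carry the glial programme, with Sox9 acting early in specification and Sox10 needed for terminal differentiation and myelin genes. The SoxD proteins Sox5, Sox6 and Sox13 have no activation domain of their own, and Sox5 and Sox6 hold back specification and differentiation by competing with SoxE proteins and recruiting co-repressors. The SoxB1 proteins Sox2 and Sox3 maintain neural progenitors and also act in oligodendrocyte development, and the SoxC proteins Sox4 and Sox11 are factors of immature neural cells.

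Promoters are shown for Sox2 and Sox5, which both had a probe that passed the test, as the 250 bases before the annotated start in RefSeq for GRCm38.p6. The table matched 7 of the 10 genes and listed no promoter for Sox9, Sox10 or Sox3. Capitals mark ACAAAG and ACAATG, variants of the core bound by Sox HMG domains, and GGGCGG, the GC box, each searched on both strands. ACAAAG read on the other strand is CTTTGT, whose letters overlap the core bound by TCF and LEF proteins. Sox2 lies on chromosome 3, chr3:34649745-34649994, plus strand, and Sox5 on chromosome 6, chr6:143947107-143947356, minus strand.
Sox2 promoter: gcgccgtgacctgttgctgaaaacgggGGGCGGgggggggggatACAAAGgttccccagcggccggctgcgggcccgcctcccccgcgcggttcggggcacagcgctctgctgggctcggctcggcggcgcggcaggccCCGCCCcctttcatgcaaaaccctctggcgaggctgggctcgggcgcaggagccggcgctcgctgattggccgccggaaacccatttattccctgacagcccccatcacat
Sox5 promoter: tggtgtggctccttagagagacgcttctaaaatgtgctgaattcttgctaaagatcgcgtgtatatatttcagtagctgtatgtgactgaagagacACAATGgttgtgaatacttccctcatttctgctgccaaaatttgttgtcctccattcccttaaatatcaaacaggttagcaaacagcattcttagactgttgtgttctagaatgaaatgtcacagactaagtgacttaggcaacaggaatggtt
The Sox2 window was 72% GC with 27 CpG and held ACAAAG 206 bases before the start and the GC box at 223 bases and, on the other strand, at 111 bases. The Sox5 window was 39.6% GC with 3 CpG and held ACAATG 154 bases before the start. Over all 32851 promoters the median was 52.4% GC and 6 CpG, and ACAAAG was found in 16.5%, ACAATG in 10.7% and GGGCGG in 32.7% of them. These matches describe the letters of the windows only.

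Of the SoxE genes, Sox9 was lower in spinal cord OPC, by 2.38-fold and 3.32-fold on its 2 probes, while Sox10 and Sox8 did not pass the test. The brighter Sox9 probe (ILMN_2778151) had log2 intensities of 12.75, 12.49 and 12.23 in spinal cord replicates 1 to 3, against 14.01, 13.94 and 13.28 in cerebrum replicates 1 to 3. The other Sox9 probe (ILMN_3007428, chromosome 11) had 8.65, 8.47 and 8.11 in spinal cord, against 10.64, 10.20 and 9.58 in cerebrum. Every spinal cord array lay below every cerebrum array on both probes. The means of the brighter probe were 12.49 ± 0.26 in spinal cord and 13.74 ± 0.41 in cerebrum (SD, n = 3 each), a log2 difference of -1.25 with a 95% interval of -1.64 to -0.86 (limma adjusted p = 0.00155). The other probe averaged 8.41 ± 0.27 in spinal cord and 10.14 ± 0.54 in cerebrum (SD, n = 3 each), a log2 difference of -1.73 with an interval of -2.21 to -1.25 (limma adjusted p = 0.000621). Within the 3 preparations the difference was -1.26, -1.45 and -1.05 on the brighter probe and -1.99, -1.74 and -1.46 on the other. Both probes passed the test under all 15 processing alternatives, with adjusted p up to 0.0213 and 0.00903. In RNA of a whole culture, fewer cells that express a gene and less of its RNA per cell cannot be told apart.

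Sox10, the factor that activates myelin genes, had log2 intensities of 14.11, 13.82 and 13.77 in spinal cord and 13.89, 13.80 and 13.69 in cerebrum on its single probe. The tissues overlapped, and the log2 difference was 0.11 with an interval of -0.12 to 0.34 (limma adjusted p = 0.898). Sox8, a partly redundant relative of Sox10, had 8.83, 8.51 and 9.11 in spinal cord and 8.40, 8.76 and 9.42 in cerebrum on its brighter probe. Here too the tissues overlapped. The log2 difference of Sox8 was -0.04 (interval -0.52 to 0.43) on this probe and -0.30 (interval -0.67 to 0.06) on the other, with limma adjusted p of 0.989 and 0.652. The interval of the brighter Sox8 probe covers differences of either sign.

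**Figure D1:**
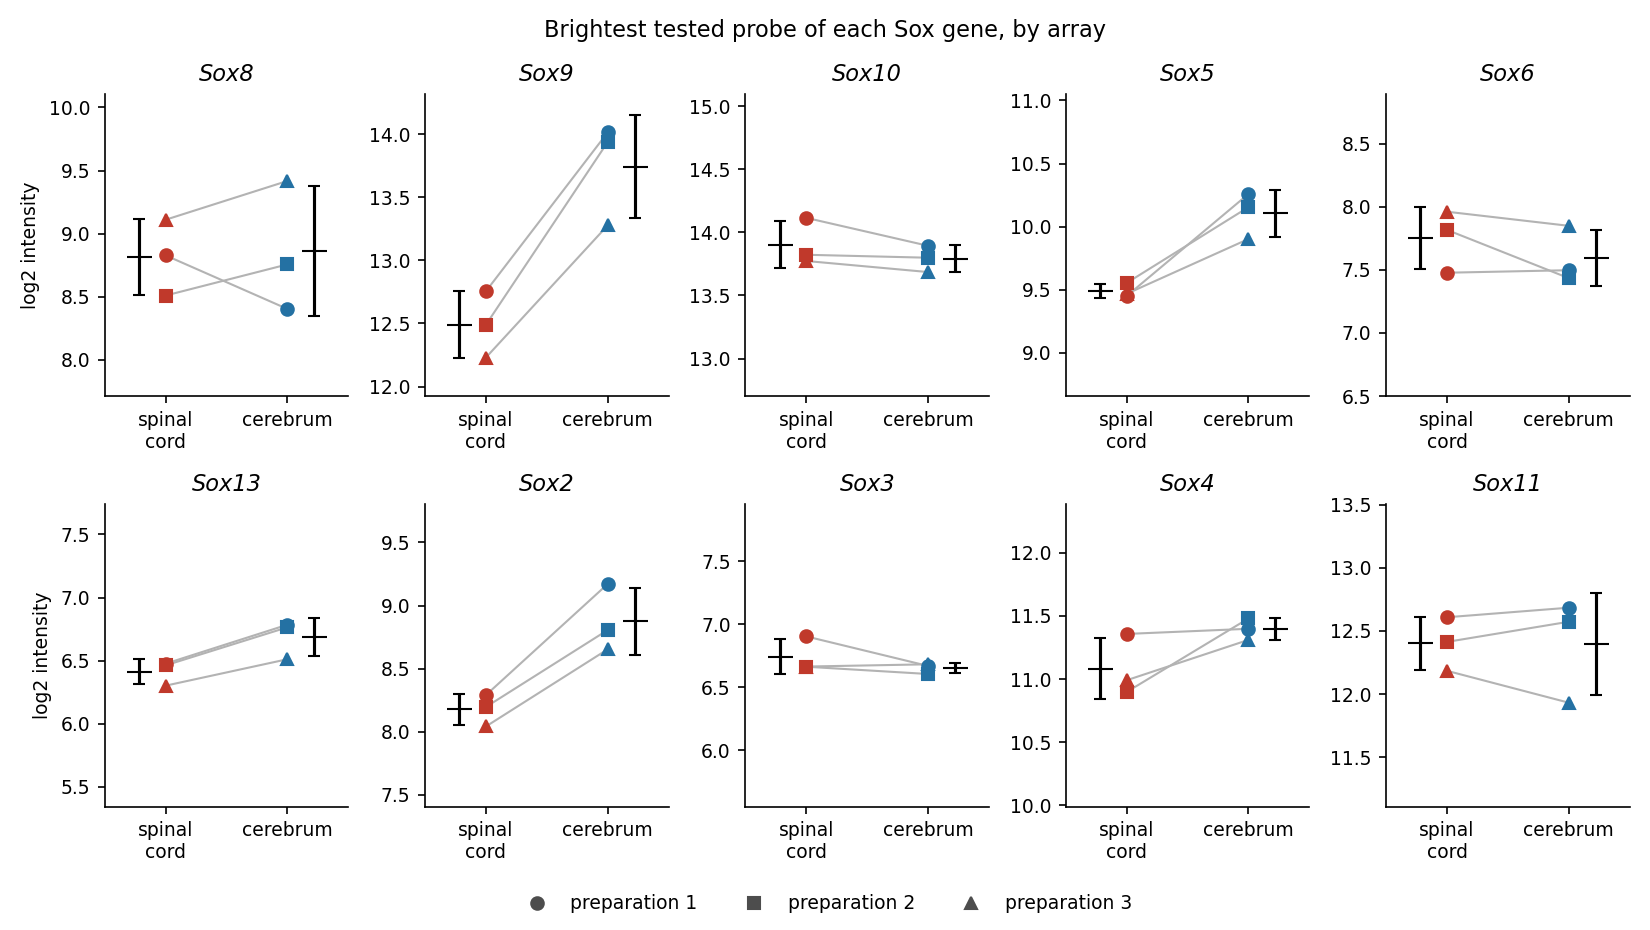
Log2 intensity (y axis) of the brightest tested probe of each of the 10 Sox genes on the 6 arrays, spinal cord left and cerebrum right. Lines join the cultures of 1 preparation, horizontal bars are means and vertical bars 1 SD of n = 3, and each panel has its own range of values on an axis of equal span. The spinal cord arrays lie below all cerebrum arrays for Sox9, Sox5, Sox13 and Sox2.

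Of the SoxD genes, Sox5 was lower in spinal cord OPC on 2 of its 3 tested probes, while Sox6 and Sox13 did not pass the test. The brightest Sox5 probe (ILMN_2631143, chromosome 6) had 9.45, 9.55 and 9.47 in spinal cord, against 10.26, 10.15 and 9.90 in cerebrum. The spinal cord arrays lay within a narrow range below all cerebrum arrays. Their means were 9.49 ± 0.06 in spinal cord and 10.11 ± 0.18 in cerebrum (SD, n = 3 each), 1.53-fold lower with a log2 difference of -0.61 (interval -0.87 to -0.36, limma adjusted p = 0.0132). A dimmer probe (ILMN_1244213) had 6.64, 6.74 and 6.51 in spinal cord, against 7.14, 7.18 and 6.94 in cerebrum, again without overlap. Its log2 difference was -0.45 (interval -0.68 to -0.23, limma adjusted p = 0.044). The third tested Sox5 probe (ILMN_2580904) overlapped between the tissues, with a log2 difference of -0.06 (interval -0.32 to 0.19, limma adjusted p = 0.97). The tested Sox5 probes therefore disagree, and which transcripts each probe reads was not analysed here.

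The Sox5 calls, though not the size of the difference, depended on single arrays, as did the number of calls over all probes. With 1 array left out the log2 difference was -0.72 to -0.54 on the brightest probe and -0.53 to -0.39 on the dimmer one. Without spinal cord replicate 1, 2 or 3 or cerebrum replicate 2, the limma adjusted p of the brightest Sox5 probe was 0.0826, 0.0707, 0.0841 and 0.0949. The dimmer Sox5 probe missed the threshold without any 1 array except cerebrum replicate 3, with limma adjusted p up to 0.267. With the preparation as a block both kept it, at limma adjusted p of 0.000289 and 0.00394.

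Sox6, the usual partner of Sox5, had 7.48, 7.82 and 7.96 in spinal cord and 7.50, 7.43 and 7.85 in cerebrum on its brighter tested probe. The tissues overlapped, and so did they on the other tested probe, with 6.72, 6.42 and 6.26 in spinal cord and 6.44, 6.36 and 6.27 in cerebrum. The log2 differences were 0.16 (interval -0.16 to 0.48) and 0.11 (interval -0.14 to 0.36), with limma adjusted p of 0.892 and 0.914. Sox13, the remaining SoxD gene, had 6.48, 6.46 and 6.30 in spinal cord, against 6.78, 6.76 and 6.51 in cerebrum. Its spinal cord arrays lay below all cerebrum arrays, yet the log2 difference of -0.27 (interval -0.50 to -0.05) did not pass the test (limma adjusted p = 0.326). The single Sox13 probe lay close to the background floor. With the olfactory receptor background subtracted its difference was -0.62 (limma adjusted p = 0.341). With array weights it was -0.34 and passed (limma adjusted p = 0.0154).

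Of the SoxB1 genes, Sox2 was lower in spinal cord OPC on 1 of 2 probes and Sox3 did not pass the test. The brighter Sox2 probe (ILMN_2656102) had 8.29, 8.20 and 8.04 in spinal cord, against 9.17, 8.81 and 8.65 in cerebrum. The means were 8.18 ± 0.13 in spinal cord and 8.88 ± 0.27 in cerebrum (SD, n = 3 each), 1.63-fold lower with a log2 difference of -0.70 ± 0.14 (standard error, limma adjusted p = 0.0166). The other probe (ILMN_1248711, chromosome 3) had 7.88, 7.65 and 7.68 in spinal cord, against 8.29, 8.26 and 7.95 in cerebrum. Neither Sox2 probe overlapped between the tissues. The log2 difference of the second was -0.43 (interval -0.70 to -0.17), which did not pass as reported (limma adjusted p = 0.124). It passed in 3 of 15 processing alternatives, among them the preparation as a block and array weights (limma adjusted p = 0.0104 and 0.0014). Without spinal cord replicate 2 or 3 or cerebrum replicate 2, the brighter Sox2 probe missed the threshold at limma adjusted p of 0.104, 0.116 and 0.0704. Sox3, on the X chromosome, lay close to the background floor with 6.90, 6.66 and 6.66 in spinal cord and 6.67, 6.61 and 6.68 in cerebrum. Its values overlapped, with a log2 difference of 0.09 (interval -0.12 to 0.31, limma adjusted p = 0.92).

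The SoxC genes did not pass the test. Sox4 (chromosome 13) had 11.36, 10.90 and 10.99 in spinal cord and 11.40, 11.48 and 11.31 in cerebrum on its brighter probe, with spinal cord replicate 1 inside the cerebrum range. Its log2 difference was -0.31 (interval -0.59 to -0.04, limma adjusted p = 0.385). The dimmer Sox4 probe, close to the background floor, overlapped between the tissues at -0.08 (interval -0.26 to 0.11, limma adjusted p = 0.926). Sox11 (chromosome 12) had 12.61, 12.41 and 12.18 in spinal cord and 12.68, 12.57 and 11.93 in cerebrum on its brightest probe. The tissues overlapped, and the log2 difference was 0.01 (interval -0.37 to 0.39, limma adjusted p = 0.999). On the second Sox11 probe it was -0.20 (interval -0.61 to 0.20, limma adjusted p = 0.891), but without cerebrum replicate 3 it was -0.46 and passed (limma adjusted p = 0.0247).

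Over the 10 genes, 18 of 25 probes passed the floor, at least 1 for each gene. The 7 others, of Sox3, Sox5, Sox6 and Sox11, had log2 intensities of 5.68 to 6.29 and were not tested. Of the 18, 5 were lower in spinal cord OPC at an adjusted p under 0.05 and 0 were higher. Of all 20988 tested probes, 0.829% were lower and 1.48% higher at that threshold, 2.31% in all. The 5 probes belong to 3 genes, Sox9, Sox5 and Sox2, where 2.95% of 11226 genes passed on their brightest tested probe, 1.08% lower and 1.87% higher. Tissues did not overlap on 7 of the 18 probes, all with spinal cord below cerebrum, where 14.5% of all tested probes did not overlap, 6.95% with spinal cord below and 7.53% above. The median log2 difference was -0.24 over the 18 probes and -0.0046 over all tested probes. With the preparation as a block 6 of the 18 probes passed, all lower, where 5.09% of all tested probes passed and 2.24% were lower. Without 1 array at a time the 5 became 3, 2 and 2 (spinal cord replicates 1, 2 and 3) and 4, 2 and 7 (cerebrum replicates 1, 2 and 3), and Sox9 passed each time. In the same order, the 484 calls over all tested probes became 258, 227 and 270, and 438, 272 and 886.

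**Figure D2:**
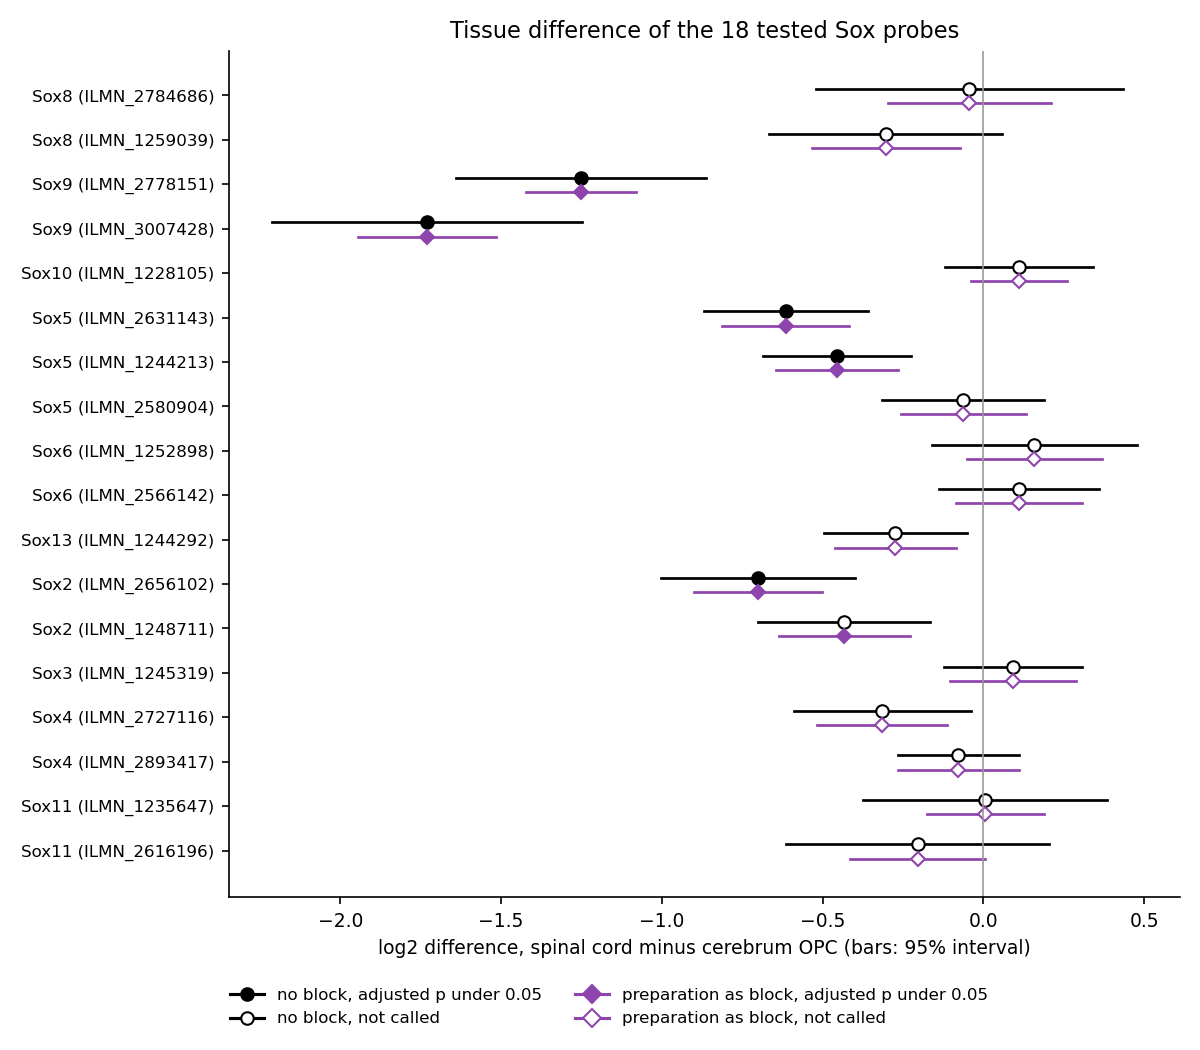
Log2 difference, spinal cord minus cerebrum OPC (x axis), of the 18 tested Sox probes with 95% intervals, without a block (black circles) and with the preparation as a block (purple diamonds). Filled symbols passed an adjusted p of 0.05. Both Sox9 probes lie farthest left, at -1.25 and -1.73, and the second Sox2 probe is filled only with the block.

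Within a Sox subgroup, unequal tissue differences were measured array by array as 1 gene minus the other on their brightest tested probes. Sox9 minus Sox10 averaged -1.41 ± 0.11 in spinal cord and -0.05 ± 0.31 in cerebrum (SD, n = 3 each), a difference of -1.36. Sox5 minus Sox6 differed by -0.77, Sox5 minus Sox13 by -0.34 and Sox2 minus Sox3 by -0.79. In these 4 pairs the tissues did not overlap, with the first gene further down in spinal cord. The exact permutation p, two-sided, was 0.1 for each, the smallest that 3 arrays against 3 allow, and 0.2 after adjustment over the 8 pairs, so no pair could pass. In the other 4 pairs the tissues overlapped, with differences of 1.21 for Sox8 minus Sox9, -0.15 for Sox8 minus Sox10, 0.43 for Sox6 minus Sox13 and -0.32 for Sox4 minus Sox11. With the olfactory receptor background subtracted, Sox5 minus Sox13 differed by only -0.03 (exact permutation p = 0.9). Sox5 minus Sox6 then differed by -0.87 (exact permutation p = 0.2). These values set changes side by side, not levels, since probes differ in brightness for the same amount of RNA.

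The cell preparation, shared by both tissues, went with the level of Sox9, Sox11 and Sox8. In preparation 3 Sox9 and Sox11 were low and Sox8 high in both tissues, as the values above show. Averaged over both tissues, Sox9 had 13.38, 13.21 and 12.75 in preparations 1, 2 and 3 on its brighter probe. Sox11 had 12.65, 12.49 and 12.06 on its brightest probe. Sox8 had 8.62, 8.63 and 9.26 on its brighter probe. A moderated F test over preparations with tissue in the model, added after these values were seen, passed for both probes of Sox9 (limma adjusted p = 0.00909 each), both tested probes of Sox11 (limma adjusted p = 0.0157 and 0.0225) and the brighter Sox8 probe (limma adjusted p = 0.0258). It passed for 5 of the 18 Sox probes and for 4.29% of all tested probes. Preparation 3 was the lowest in both tissues on 9 of the 18 probes (50%) and on 20.4% of all tested probes, and the highest in both on 5 of the 18 (27.8%) and on 19.2% of all tested probes.

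Sox10 did not pass this test (limma adjusted p = 0.132), preparation 3 minus preparation 1 being -0.27. The 2 tested Sox6 probes went opposite ways, at 0.42 and -0.31 for the same difference, and neither passed. Leaving out cerebrum replicate 3 left 2 probes, both of Sox9, and subtracting the olfactory receptor background left 0. The summed intensity of 5 tested Schwann cell markers was low in preparation 3, with 9300, 9112 and 8489 in spinal cord and 10354, 9564 and 6791 in cerebrum, and that of 4 neural stem cell markers with 1307, 1339 and 1255 in spinal cord and 1558, 1529 and 1374 in cerebrum. Their part in the Sox values was not tested.

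**Figure D3:**
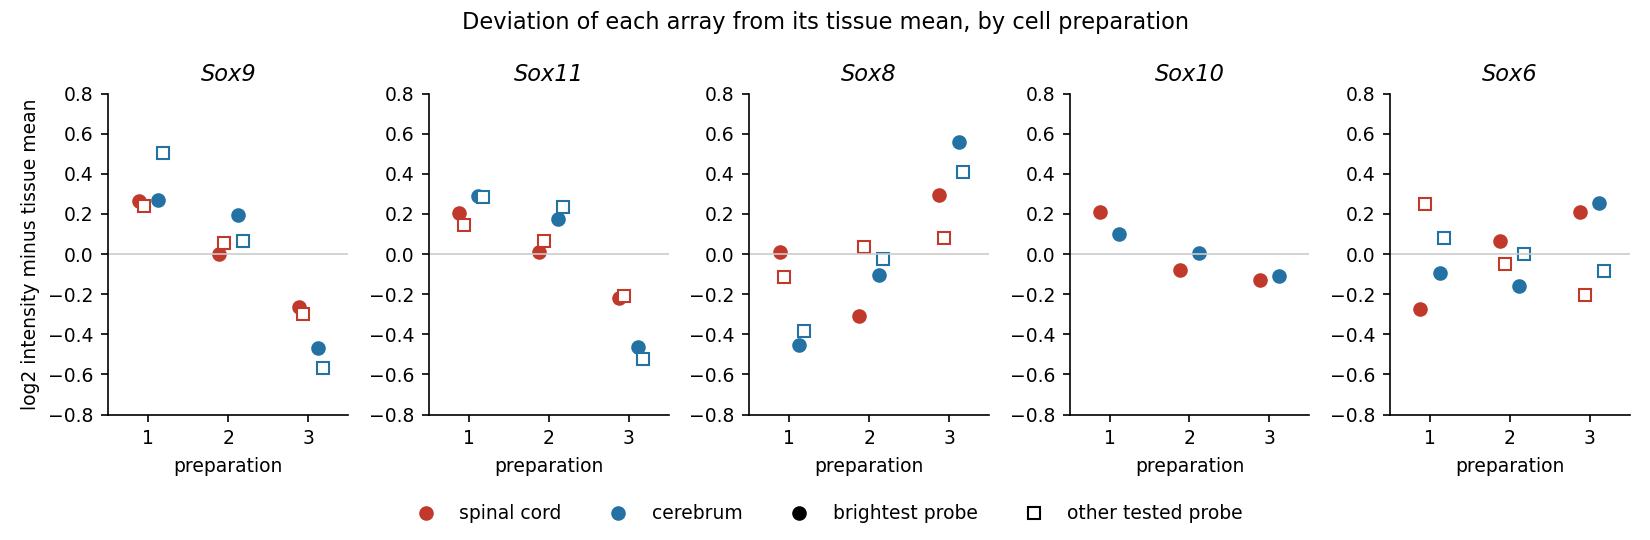
Log2 intensity minus the mean of the same tissue (y axis) for each array by cell preparation (x axis), for Sox9, Sox11, Sox8, Sox10 and Sox6. Filled circles are the brightest probe and open squares the other tested probe, spinal cord in red and cerebrum in blue. Preparation 3 sits below 0 in both tissues for Sox9 and Sox11 and above 0 for Sox8.

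The genes whose profile over the 6 arrays came closest to Sox9, Sox5 and Sox2 were found by the root mean square distance between log2 profiles, each centred on its own mean, over 11210 genes outside the Sox family. Nearest to Sox9 were Myo10, an unconventional myosin of filopodia, at 0.0856, Nptx2, a secreted neuronal pentraxin, at 0.113 and Chl1, a cell adhesion molecule, at 0.14, beside a spread of 0.685 for Sox9 itself. Myo10 had 7.15, 6.96 and 6.77 in spinal cord, against 8.30, 8.33 and 7.79 in cerebrum, without overlap. Its log2 difference was -1.18 ± 0.15 and that of Nptx2 -1.16 ± 0.15 (standard error). Chl1 lay below the floor on all spinal cord arrays and was at least 1.81-fold lower there. Since a tissue difference like that of the Sox gene was part of the choice, these differences are given as a description with no test.

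Nearest to Sox5 were Rassf2, a Ras association domain protein, at 0.0451, the gene the array calls 2010204N08Rik at 0.0455 and Slitrk2, a neuronal membrane protein, at 0.081. Their log2 differences were -0.58 ± 0.12, -0.58 ± 0.10 and -0.56 ± 0.12 (standard error). The last 2 passed the floor on 1 of 3 spinal cord arrays. Nearest to Sox2 were Adgrg6, an adhesion receptor that the array calls Gpr126, at 0.0495, Rfx4, a winged-helix transcription factor of the neural tube, at 0.0508 and Gpd2, the mitochondrial glycerol phosphate dehydrogenase, at 0.0814. Rfx4 differed by -0.63 ± 0.13 and Gpd2 by -0.61 ± 0.14 on the log2 scale (standard error). Adgrg6 lay below the floor on all spinal cord arrays and was at least 1.45-fold lower there. These distances describe 6 arrays and give each gene's likeness in tissue difference and preparation together.

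The rest of the Sox family passed the floor on 7 probes of Sox7, Sox12, Sox14 and Sox21, and 0 of them passed the test by limma, with 1 at an unadjusted p under 0.05 and 1 with the block. That probe was the brighter one of Sox21, a SoxB2 gene described in chick as countering SoxB1 in neural progenitors. It had 11.56, 11.35 and 11.29 in spinal cord, against 11.83, 11.68 and 11.62 in cerebrum, below all cerebrum arrays. Its log2 difference was -0.31 ± 0.11 (standard error, limma adjusted p = 0.284 without the block and 0.0264 with it). On their brightest tested probes, Sox7 had -0.18 ± 0.10, Sox12, the remaining SoxC gene, 0.13 ± 0.10 and Sox14 -0.12 ± 0.10.

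Among 8 lists of genes around the Sox factors, 101 of 152 genes were tested and 11 passed, 24 with the block, where 2.95% of all genes passed and 6.33% with the block. The lists too were chosen with earlier results of these data known, so these shares are a description. The median log2 difference of all tested genes was 0.0006. Of 22 tested transcription factors that work beside Sox10, 2 rose in spinal cord OPC, 0 fell and the median was -0.01. Myt1, a zinc finger factor of the lineage, had 11.16, 11.36 and 11.30 in spinal cord, against 10.75, 10.82 and 10.80 in cerebrum (log2 difference 0.49 ± 0.10, standard error, limma adjusted p = 0.0232). Nkx6-1, a homeodomain factor of the ventral neural tube, lay below the floor on all cerebrum arrays, and the spinal cord level was at least 1.23-fold higher. Its limma adjusted p of 0.00107 belongs to the log2 difference of 0.65, not to this bound. Since Nkx6-1 was tested only because its spinal cord arrays passed the floor, this call is no independent support. With the floor required on all 6 arrays, 1 of 21 tested factors of this list passed. Myt1 missed the threshold without any 1 array other than cerebrum replicate 3 (limma adjusted p up to 0.194), and Nkx6-1, above the floor on the spinal cord arrays only, was not tested without any of those.

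Of 15 tested chromatin and co-regulator partners, 1 rose and 1 fell, both co-repressors of the Groucho family, with a median of -0.02. Tle4 averaged 11.19 ± 0.19 in spinal cord and 12.11 ± 0.12 in cerebrum (SD, n = 3 each; log2 difference -0.92 ± 0.12, standard error, limma adjusted p = 0.000626). Tle1 had 10.68, 10.36 and 10.41 in spinal cord, against 10.07, 9.93 and 9.96 in cerebrum (log2 difference 0.50 ± 0.12, standard error, limma adjusted p = 0.0421). The arrays of the tissues did not overlap for either, but the 2 other tested Tle4 probes and the 3 other tested Tle1 probes did not pass. Tle1 missed the threshold without spinal cord replicate 1, 2 or 3 or cerebrum replicate 2 (limma adjusted p = 0.259, 0.105, 0.131 and 0.218), while Tle4 kept it with any 1 array left out.

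Of 17 tested genes described as direct targets of Sox10 or Sox8 in glia, 2 rose and 1 fell in spinal cord OPC, with a median of -0.04. Mbp, which encodes myelin basic protein, differed by 1.04 ± 0.11 (standard error, limma adjusted p = 0.000111), and Ednrb, an endothelin receptor, by -1.37 ± 0.12 (limma adjusted p = 2.57e-05). Dhh, a hedgehog ligand that Sox10 activates in Schwann cells, had 9.06, 8.99 and 8.59 in spinal cord, against 8.21, 8.18 and 7.51 in cerebrum (log2 difference 0.91 ± 0.18, standard error, limma adjusted p = 0.0181). Dhh missed the threshold without spinal cord replicate 1 or 2 (limma adjusted p = 0.119 and 0.14). With the block 4 rose, among them Mag and Cnp, and 3 fell, among them Dusp15. The called genes of this list lay in both directions, beside the Sox10 interval of -0.12 to 0.34.

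Of 17 tested genes described as Sox9 targets in glia and cartilage, 0 rose and 1 fell, with a median of 0.01. That gene was Col9a1, a cartilage collagen, with 7.14, 7.29 and 7.56 in spinal cord, against 7.90, 7.74 and 8.03 in cerebrum (log2 difference -0.56 ± 0.13, standard error, limma adjusted p = 0.0389). Its other tested probe did not pass, and the gene missed the threshold without spinal cord replicate 1 or 2 or cerebrum replicate 1 or 2. Of 14 tested neural stem cell genes around SoxB1, 0 rose and 1 fell, with a median of -0.18. This was Nr2e1, the nuclear receptor Tlx of neural stem cells, at -1.13 ± 0.13 (standard error, limma adjusted p = 0.000274), above the floor on 2 of 3 spinal cord arrays. With the block Vim, Fabp7 and Hes5 fell too and Ccnd1 rose.

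Of 8 tested neuronal and cytoskeletal genes around SoxC, 1 rose, with a median of 0.12. That was Gap43, a growth cone protein, at 0.40 ± 0.10 (standard error, limma adjusted p = 0.0483), and 0 of the 8 passed without any 1 array other than cerebrum replicate 3. Of 13 tested upstream regulators, 1 rose, with a median of -0.01. That was Fgfr2, a fibroblast growth factor receptor, at 1.53 ± 0.10 (standard error, limma adjusted p = 1.91e-06).

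Markers of other cells moved in part with tissue. Of 7 tested astrocyte markers, Sparcl1 rose (0.43 ± 0.09, limma adjusted p = 0.0247, which was 0.0697 to 0.139 without spinal cord replicate 1, 2 or 3 or cerebrum replicate 2) and Acsbg1 fell (-0.79 ± 0.12, limma adjusted p = 0.0027), and their summed intensity was 15721 to 17089 in spinal cord and 13716 to 14792 in cerebrum. Their part in the Sox9 difference was not tested. Of 4 tested neural stem cell markers 0 passed by limma, with 2 at an unadjusted p under 0.05 and 2 lower with the block (Fabp7 and Hes5), and their sum was 1255 to 1339 in spinal cord and 1374 to 1558 in cerebrum. Like Sox2 and Sox9, that sum was lower in every spinal cord array than in every cerebrum array, and its part in their difference was not tested. The sum over the 14 tested neural stem cell genes around SoxB1 went the other way within each preparation. That larger sum was 28526 to 35687 in spinal cord and 23657 to 33032 in cerebrum, with overlap. Of 7 tested markers of differentiated oligodendrocytes 1 rose by limma, Mbp, with 4 at an unadjusted p under 0.05. With the block 4 of these markers rose and 1 fell. Their median log2 difference was 0.35, with a range of -1.23 to 1.04. Microglia markers passed the floor for 3 of 11 genes and 0 passed the test by limma, adjusted or not, with sums of 244 to 276 in spinal cord and 234 to 261 in cerebrum. No marker of neurons, Schwann cells, endothelium, fibroblasts or ependyma passed the test by limma, with 1 neuronal (Dcx) and 1 endothelial marker at an unadjusted p under 0.05 and Dcx passing with the block. The sum of the 4 tested neuronal markers was 8886 to 10765 in spinal cord and 7905 to 8708 in cerebrum, higher in every spinal cord array than in every cerebrum array, with a median log2 difference of 0.16 and all 4 above 0. Its part in the Sox differences was not tested.

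**Figure D4:**
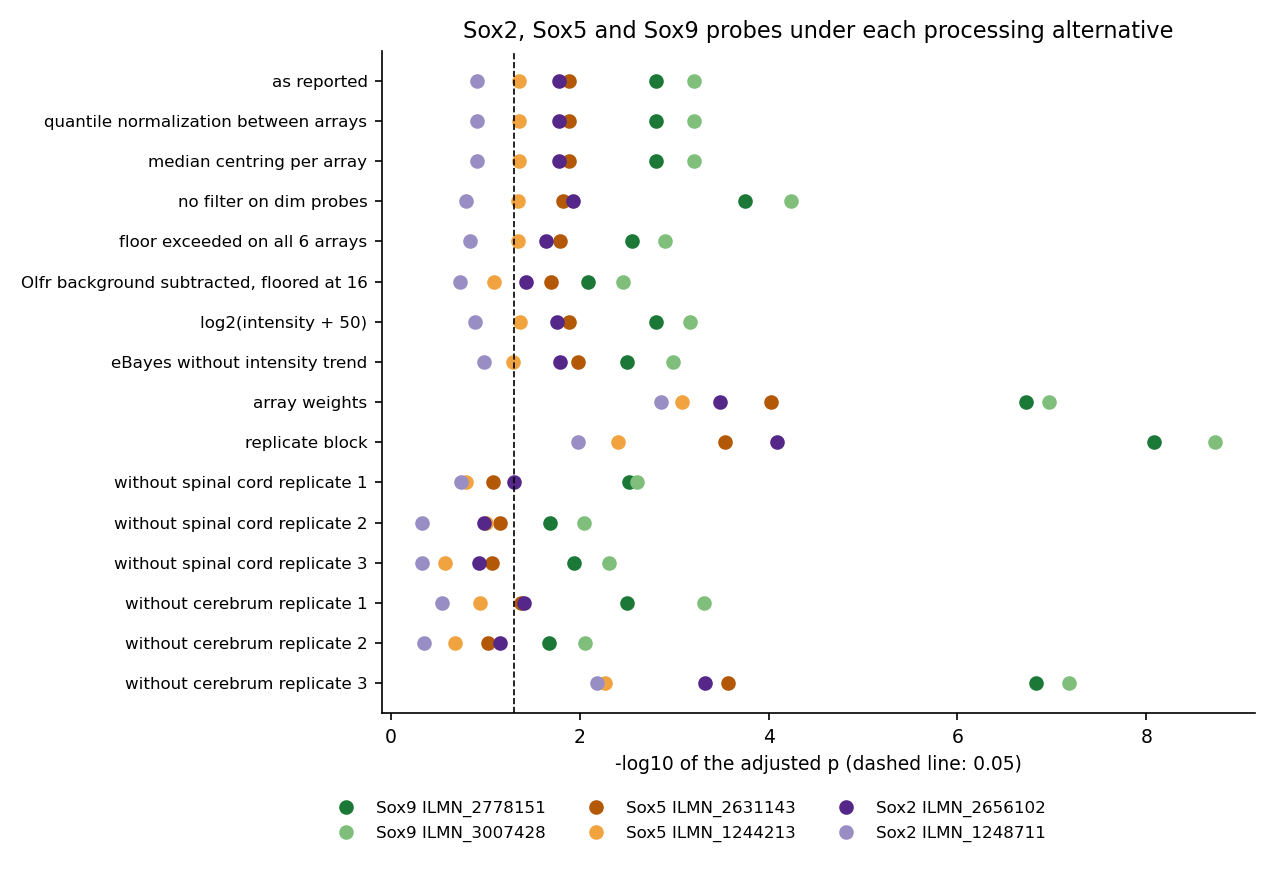
Adjusted p of the Sox9, Sox5 and Sox2 probes as -log10 (x axis, dashed line at 0.05) under the reported setting and each of 15 processing alternatives (y axis). Both Sox9 probes stay right of the line throughout. The Sox5 probes shown and the brighter Sox2 probe cross it when single arrays are left out. The dimmer Sox5 probe also crosses it with the background subtracted and without the intensity trend. The second Sox2 probe lies left of the line as reported and under most alternatives.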

How the data were processed

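The arrays carried biotin-labelled cRNA made from column-purified RNA of 3 spinal cord and 3 cerebrum OPC cultures, per the labels' protocols. The submitters' processing notes name GenomeStudio 2011.1. The values used were the authors' deposited intensities, 1 per probe and array on a linear scale, in a table whose columns carry the sample names. They ran from 36.5 to 49682 on every array, with a median of 64.5 and an upper quartile of 162.7. The authors' normalisation step is unstated in the sources used here, but these equal values mean that the arrays had been brought to nearly the same distribution. Olfactory receptor probes had a median of 52.3 to 53.0, so background remained and the fold of a dim gene is understated. Gene symbols came from a further table, whose 12 columns of per-sample values match no sample's labels and were not used.

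Log2 intensities were fitted over 20988 probes with limma 3.58.1 in R 4.3.3 (lmFit, eBayes with an intensity trend, no block), spinal cord minus cerebrum. P-values were adjusted by Benjamini-Hochberg over all of these probes, with a threshold of 0.05. Without named animals, p-values of this fit measure the spread between these cultures within a tissue. The fit without a block does not use the pairing of cultures by preparation, and the blocked fit does. Counts of genes used the brightest tested probe of each, and of 30869 symbols 16219 matched a current symbol and 5718 a synonym in NCBI's GRCm38.p6 gene table. A probe below the floor on all 3 arrays of a tissue got a bound in place of a fold, taken against the floor or the probe's own value, whichever was higher. Replicate numbers mark a shared preparation, per the labels' design text. Deviations of same-numbered samples correlated with 0.53, 0.21 and 0.50 across probes, and of differently numbered samples with -0.45 to 0.03, so the numbers were taken as pairs and the blocked fit is an alternative. The median standard error was 0.11, and 0.09 with the block. The number of arrays limits the precision.

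The members and gene lists were chosen with earlier results of these data known. Named were all members, every other tested Sox gene, up to 4 passing genes per list, 4 OPC markers and the 3 nearest profiles for each member with a passing probe. No genome was used, and coordinates are those of the promoter table. The scripts were tested on simulated data.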

Additional observations from a re-analysis of the deposited data

How the results depend on the processing

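Quantile normalisation, centring on the median, dropping or tightening the floor, a pseudocount of 50 and the fit without an intensity trend left the counts of Sox probes, Sox genes, all probes, the list genes in all and preparation effects within 1.5 times, while single lists lost or gained a gene. Quantile normalisation and median centring could change little. The deposited values already had the same range and upper quartile and nearly the same median on every array. Both Sox9 probes passed in all 15 alternatives. Of 270 values of single Sox probes under an alternative, 238 kept direction and side of the threshold, 14 lost it, 7 gained it and 11 changed sign. Array weights, which are set by the arrays' own residuals (3.71 for cerebrum replicate 2, 0.316 for cerebrum replicate 3), gave 9 Sox probes of 6 genes, 1615 probes in all and 31 list genes. With the preparation as a replicate block 1068 probes and 24 list genes passed, and the block took no call from the Sox probes. Leaving out 1 array at a time gave 2 to 7 Sox probes of 1 to 4 genes, 227 to 886 probes in all, 5 to 19 list genes and 2 to 7 Sox probes with a preparation effect, which numbered 0 with the olfactory receptor background subtracted. That subtraction and the fit without a trend also took the call of the dimmer Sox5 probe (limma adjusted p = 0.0815 and 0.0508). Its log2 difference was then -0.84 ± 0.20 (standard error) with the subtraction, against -0.45 as reported. Signs changed under array weights for Sox11 (-0.16), the third Sox5 probe (0.052), the brighter Sox8 probe (0.047) and the dimmer Sox4 probe (0.010), none of which passed. With 1 array left out they changed for Sox11 (-0.23 to 0.15), the third Sox5 probe (-0.13 to 0.064), the brighter Sox8 probe (-0.27 to 0.24), the dimmer Sox6 probe (-0.015 to 0.21) and Sox8 minus Sox10 (-0.43 to 0.18). No pair within a subgroup passed in any alternative, since 3 arrays against 3 cannot. The cause of these changes was not tested, and remaining background limits what the probes near the floor can show.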
